A study of Mus musculus with 4 samples.

Results

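The genes described here make cholesterol and fatty acids, control that synthesis, and move, store or dispose of the products in the hippocampus after global cerebral ischemia (GCI). They were chosen by symbol, as 41 of the 22609 genes counted in each library, and were divided by role into 16 genes of sterol synthesis, 5 genes that control the sterol regulatory element-binding proteins (SREBPs), 7 genes of fatty acid synthesis, 7 genes of the liver X receptors (LXRs) and cholesterol efflux, and 6 genes of sterol transport, storage and hydroxylation. Hippocampal RNA came from ovariectomized female mice, 3 to 5 months old by the study's methods, in which both common carotid arteries were occluded for 20 min and reperfused for 24 h. FBN-ARO-KO+GCI mice, in which aromatase is deleted in forebrain neurons, carried floxed aromatase alleles (Cyp19a1, the enzyme that makes estrogen from androgen) and a CaMKIIα-driven Cre, active by the labels in forebrain excitatory neurons only. FLOX+GCI mice were the controls without the deletion. There were 2 libraries per group, and ovariectomy and GCI were shared by all 4, so that no sham-operated or ovary-intact sample entered the comparison.

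The libraries held 24333396 to 33076795 reads on genes. A count of 3 reads, taken here as the floor of detection for counting error only, was 0.0907 to 0.123 CPM (read counts scaled to library size). Cyp19a1 itself had 1 to 4 reads in each of the 4 libraries, too few to check the genotype labels. The labels do not say that the libraries of a group came from separate mice, so p-values measure the spread between these libraries, which may be technical. In whole hippocampus, fewer cells of a type and less RNA per cell cannot be told apart. Values below are CPM after scaling by the trimmed mean of M-values (TMM), and a log2 fold change is FBN-ARO-KO+GCI against FLOX+GCI with its standard error (SE).

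Cells build cholesterol from acetyl-CoA through mevalonate, farnesyl diphosphate, squalene and lanosterol. When the membrane of the endoplasmic reticulum runs low in sterol, the carrier Scap takes the precursor of SREBP2 to the Golgi, where it is cut, and the freed fragment turns on the genes of the sterol pathway, while Insig1 and Insig2 hold Scap back when sterol is plentiful. SREBP1 works in the same way mainly on fatty acid synthesis, and the LXRs, which sense oxidized sterols, turn on the exporters Abca1 and Abcg1 and the carrier Apoe. Brain cholesterol is made locally because lipoproteins of the blood hardly cross the blood-brain barrier. In the adult brain astrocytes are held to supply much of it to neurons on Apoe particles, oligodendrocytes use it for myelin, and neurons dispose of it through the hydroxylase Cyp46a1.

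The sequences in front of these genes were searched for the elements such control is read from, and those of 4 genes are given first. RefSeq promoter windows (GRCm38.p6, 250 bases before the start of the gene and 50 after it) were at hand for 33 of the 41 genes. The windows were searched on both strands for the sterol regulatory element written as TCACNCCAC, for the CCAAT box (CCAAT) to which the partner factor NF-Y binds, and for the GC box GGGCGG, the core to which Sp1 binds. The lines below print the 250 bases before the start, 5′ to 3′ along the gene, with matches to TCACNCCAC and CCAAT on either strand in capitals (a CCAAT box on the opposite strand reads ATTGG). No 2 of these matches overlapped. Hmgcs1 is the gene with the sterol element, Insig1 and Mvk are the control gene and the enzyme with the smallest p among their groups, and Elovl6 is the fatty acid gene with the smallest p.
Hmgcs1 (chr13:119690101-119690350, + strand): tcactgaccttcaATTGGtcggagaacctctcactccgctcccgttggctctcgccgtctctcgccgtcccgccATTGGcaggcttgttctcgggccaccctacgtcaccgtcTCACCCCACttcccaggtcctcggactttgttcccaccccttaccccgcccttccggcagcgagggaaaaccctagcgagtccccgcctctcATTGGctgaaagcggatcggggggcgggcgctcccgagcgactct
Insig1 (chr5:28071162-28071411, + strand): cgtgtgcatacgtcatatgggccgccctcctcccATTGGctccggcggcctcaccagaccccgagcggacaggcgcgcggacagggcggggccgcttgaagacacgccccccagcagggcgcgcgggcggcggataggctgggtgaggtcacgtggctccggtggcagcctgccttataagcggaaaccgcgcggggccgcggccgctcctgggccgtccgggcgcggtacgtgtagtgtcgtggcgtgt
Mvk (chr5:114444019-114444268, + strand): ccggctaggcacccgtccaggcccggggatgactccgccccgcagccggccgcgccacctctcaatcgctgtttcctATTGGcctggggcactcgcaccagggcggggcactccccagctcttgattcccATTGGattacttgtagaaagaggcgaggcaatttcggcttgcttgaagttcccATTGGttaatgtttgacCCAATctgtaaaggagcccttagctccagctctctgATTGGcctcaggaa
Elovl6 (chr3:129532136-129532385, + strand): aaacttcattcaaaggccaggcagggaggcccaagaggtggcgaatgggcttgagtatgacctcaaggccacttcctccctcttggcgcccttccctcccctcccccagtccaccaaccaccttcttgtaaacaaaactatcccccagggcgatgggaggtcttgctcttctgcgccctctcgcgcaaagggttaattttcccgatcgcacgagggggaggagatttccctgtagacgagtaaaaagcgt

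Hmgcs1 was the only 1 of the 33 genes with a window that held TCACNCCAC, with its first base 137 bases before the start. Among all genes with a window, 388 of 27025 had a match (1.44%). A gene with several windows was counted once, as matched if any of them held the letters. Counted by gene in this way, the CCAAT box was present in 12 of 13 sterol synthesis genes, 4 of 5 SREBP control genes and 3 of 5 fatty acid genes. It was present in 2 of 6 LXR and efflux genes and 3 of 4 transport, storage and hydroxylation genes, against 41.1% of all genes with a window. The window of Mvk held 5 CCAAT boxes before its start, that of Hmgcs1 3, that of Insig1 1 and that of Elovl6 none. GGGCGG was found in 12 of 13 sterol synthesis genes, 5 of 5 SREBP control genes and 1 of 5 fatty acid genes. It was found in 2 of 6 LXR and efflux genes and 3 of 4 transport, storage and hydroxylation genes, against 38.2% of all genes with a window. These are matches of letters and no measure of binding, and a window without a match says only that the letters are not in it.

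No gene of the 41 passed an adjusted p of 0.05 in the quasi-likelihood test of edgeR, adjusted over the 14527 genes tested by the method of Benjamini and Hochberg, where 0.0138% of all genes did. DESeq2 called none of those to which it gave an adjusted p, where it called 285 of 5796 such genes in all (4.92%). Insig1, Mvk, Mvd and Nr1h2 were among the genes to which it gave none, so it is no negative result for them. Hmgcs1 had no reads and was not tested. At an unadjusted p of 0.05, 9 of the 40 tested genes were below the threshold (22.5%), against a background of 16.5% of all genes. Of these 9, Insig1, Mvk, Nr1h2, Mvd, Srebf2 and Cyp46a1 were lower in FBN-ARO-KO+GCI, 6 of 40 where 7.82% of all genes were, and Elovl6, Acsl3 and Insig2 were higher, 3 of 40 where 8.72% of all genes were. The groups did not overlap for 24 genes (60.0%), against 51.8% of all genes, with 9 higher (background 25.9%) and 15 lower (background 25.8%) in FBN-ARO-KO+GCI. Without replicate 2 of FLOX+GCI, 4 of the 40 genes had an unadjusted p under 0.05, where 12.9% of all genes did, and 3 of these 4 (Elovl6, Insig1 and Mvd) were among the 9, the other being Apoe. Insig1 was the only one of the 9 below that threshold in each of the 4 fits with 1 library left out. Over the 40 genes the log2 fold change ran from -0.46 to 0.34 with a median of -0.086, beside a median of -0.0074 over all genes. A single value compared between 2 and 2 libraries by an exact two-sided permutation test cannot reach a p below 0.333, so the tests rest on the spread shared across genes.

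By role, 13 of 15 sterol synthesis genes and 4 of 5 SREBP control genes had a log2 fold change below 0, with medians of -0.18 and -0.17. Of the fatty acid genes, 6 of 7 lay above 0, with a median of 0.16. The LXR and efflux genes were divided, 4 above and 3 below 0, with a median of 0.025, and the transport, storage and hydroxylation genes had 2 above and 4 below, with a median of -0.024. Among all genes tested 51.3% were lower. The last 2 medians changed sign when 1 library was left out, lying between -0.036 and 0.011 and between -0.064 and 0.10.

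**Figure D1:**
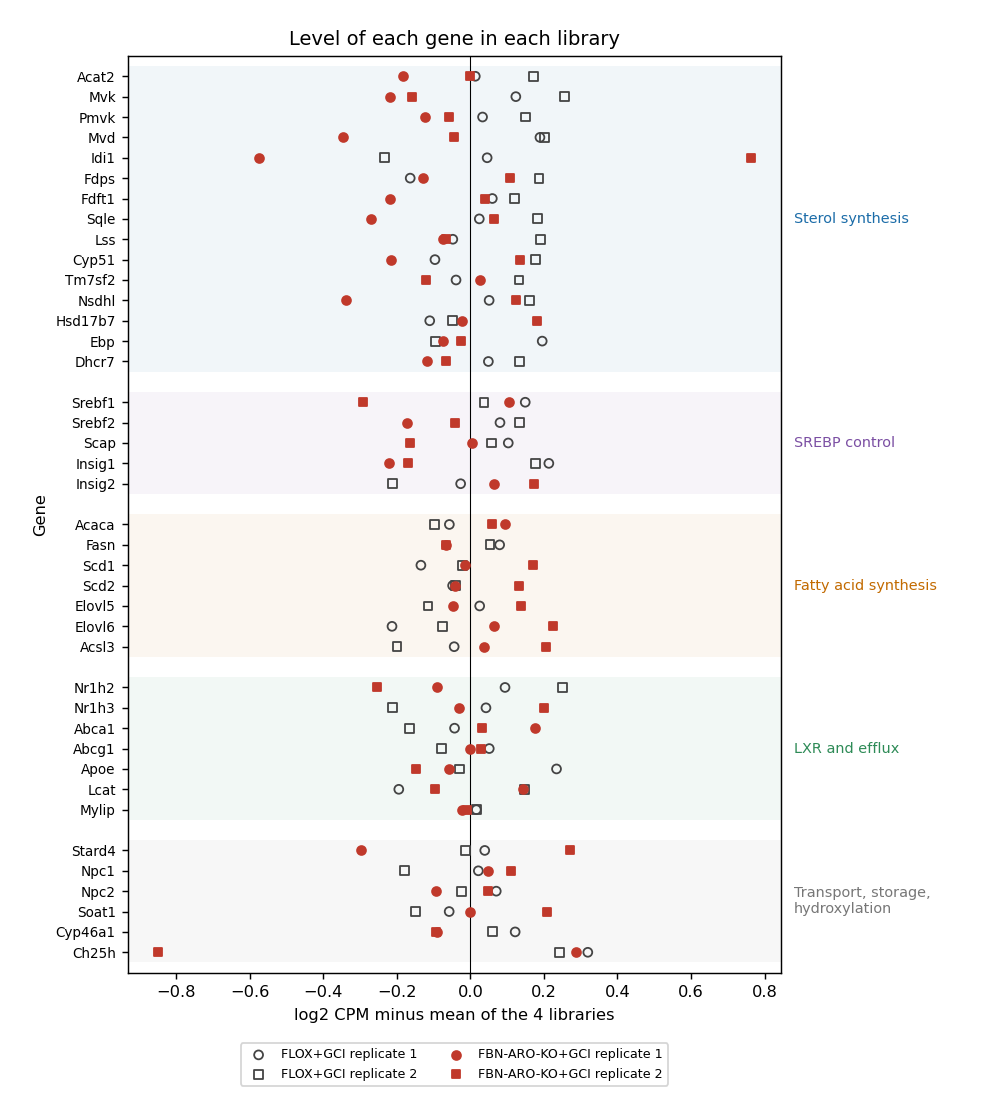
Level of each of the 40 tested genes in each library, as log2 CPM minus the mean of the 4 libraries (horizontal axis), with open symbols for FLOX+GCI, filled symbols for FBN-ARO-KO+GCI, circles for replicate 1 and squares for replicate 2. All genes but Idi1 and Ch25h, which have the fewest reads, lie within 0.4 of their mean.

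The direction of a gene went with the base composition of its transcript. Over the 14020 tested genes with a transcript in the annotation, the log2 fold change and the GC content had a Spearman correlation of -0.55, and over the 40 genes here of -0.60, given as descriptions, since all points share the same 4 libraries. The difference of replicate 2 from replicate 1 within FBN-ARO-KO+GCI correlated with GC content at -0.48 over the 14020 genes, and that within FLOX+GCI at 0.099. The median GC content was 47.2% for the fatty acid genes, 50.0% for transport, storage and hydroxylation, 50.9% for sterol synthesis, 55.5% for LXR and efflux and 57.5% for SREBP control, beside 50.6% for all genes. Across 10 equal bins of all genes by GC content, the median log2 fold change went from 0.22 at a GC content of 40.3% to -0.22 at 60.2%. With the trend of each library over GC content and length removed by an offset, 1 of the 40 genes, Insig1, had an unadjusted p under 0.05, where 10.2% of all genes did, and the genes divided into 20 higher and 20 lower. The corrected medians were -0.15 for sterol synthesis (10 of 15 lower), -0.030 for SREBP control (3 of 5 lower), 0.062 for fatty acid synthesis (5 of 7 higher), 0.074 for LXR and efflux (5 of 7 higher) and -0.013 for transport, storage and hydroxylation. The 10 sterol synthesis genes that stayed below 0 included Nsdhl (-0.27), Sqle (-0.22), Acat2 (-0.19) and Fdft1 (-0.18).

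**Figure D2:**
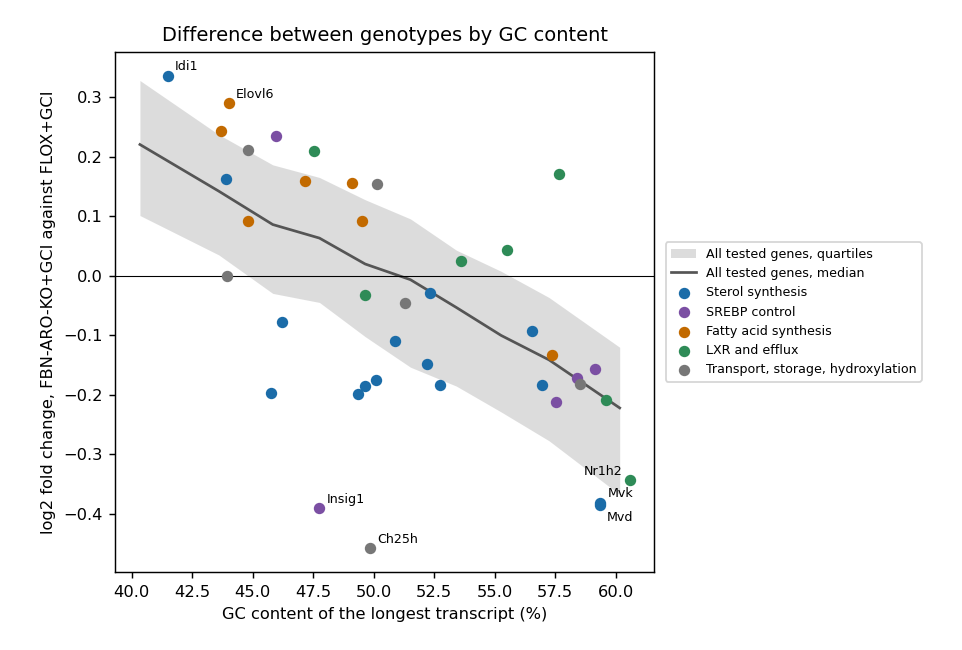
log2 fold change of FBN-ARO-KO+GCI against FLOX+GCI (vertical axis) against the GC content of the longest transcript in percent (horizontal axis), for 40 genes coloured by role, with the median (line) and quartiles (band) of all tested genes in 10 bins of GC content. The line falls from 0.22 to -0.22, and Insig1 and Ch25h lie furthest below the band and Nr1h3 furthest above it.

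Sterol synthesis starts with Acat2, the thiolase that joins acetyl-CoA units, which stood at 20.3 and 22.7 CPM in FLOX+GCI and at 17.7 and 20.1 CPM in FBN-ARO-KO+GCI (log2 fold change -0.19 ± 0.12). Hmgcs1, which makes HMG-CoA in the next step, was listed at 0 in all 4 libraries. Its promoter window, printed above, was found in the NCBIM37 assembly, the same as the mm9 build of the read mapping, only on 2 unplaced contigs and nowhere on a chromosome. The annotation used here held no Hmgcs1 transcript, so copies of its exons were not searched for. The cause of the 0 was not tested, and the 0 is not read as an absence of transcript. The 4 hemoglobin genes of the blood marker list were at 0 in the same libraries.

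Mevalonate kinase, Mvk (chr5:114894278-114910600, + strand in NCBIM37), stood at 20.0 and 21.9 CPM in FLOX+GCI and at 15.7 and 16.4 CPM in FBN-ARO-KO+GCI. Both FBN-ARO-KO+GCI libraries were below both FLOX+GCI libraries (log2 fold change -0.38 ± 0.11, 95% interval -0.65 to -0.12, unadjusted p = 0.0111, edgeR adjusted p = 0.245). Mvd, the decarboxylase that turns mevalonate diphosphate into isopentenyl diphosphate (chr8:124957496-124967322, - strand), stood at 19.4 and 19.5 CPM in FLOX+GCI and at 13.3 and 16.5 CPM in FBN-ARO-KO+GCI. It was lower in both FBN-ARO-KO+GCI libraries (log2 fold change -0.39 ± 0.14, 95% interval -0.70 to -0.068, unadjusted p = 0.0235, edgeR adjusted p = 0.255), and without replicate 1 of FBN-ARO-KO+GCI the value was -0.24. Mvk and Mvd were the sterol synthesis genes of highest GC content, 59.4% and 59.3%, and with the GC and length correction their log2 fold changes were -0.15 (unadjusted p = 0.235) and -0.15 (unadjusted p = 0.354). Mvd lies within the annotated gene Gm20388 on the opposite strand, and whether the counting used strand is not given in the sources used here, so their reads may not be told apart. Fdft1, Lss, Srebf1, Scap, Acaca, Nr1h3, Lcat, Npc1 and Ch25h also share bases with an annotated gene on the opposite strand, and Acsl3 (with Utp14b), Tm7sf2, Nr1h3 and others with one on the same strand. Pmvk, the kinase between them in the pathway, stood at 37.1 and 40.2 CPM in FLOX+GCI and at 33.3 and 34.8 CPM in FBN-ARO-KO+GCI (log2 fold change -0.18 ± 0.093), and its corrected value was 0.012.

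Idi1, which interconverts the isoprene units, was the lowest of the 40 genes, with 30 and 24 reads in FLOX+GCI and 25 and 59 reads in FBN-ARO-KO+GCI. The high replicate of FBN-ARO-KO+GCI alone set its positive value (log2 fold change 0.34 ± 0.49, 95% interval -0.80 to 1.47), and without that library the log2 fold change was -0.52. Of the 50-base windows of its transcript, 82.1% occur more than once in the assembly, as do 60.6% of those of Fdps, 44.6% of those of Acat2, 32.6% of those of Insig1 and 18.8% of those of Fdft1, so that the counts of these genes rest on part of the transcript and are uncertain. Fdps, farnesyl diphosphate synthase, stood at 15.3 and 19.6 CPM in FLOX+GCI and at 15.7 and 18.5 CPM in FBN-ARO-KO+GCI (log2 fold change -0.029 ± 0.16). The groups of Fdps overlapped.

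The branch committed to sterol begins with Fdft1, squalene synthase, which stood at 58.7 and 61.2 CPM in FLOX+GCI and at 48.3 and 57.9 CPM in FBN-ARO-KO+GCI (log2 fold change -0.18 ± 0.10). Sqle, squalene epoxidase and an early oxygen-requiring step, stood at 72.0 and 80.3 CPM in FLOX+GCI and at 58.7 and 74.0 CPM in FBN-ARO-KO+GCI (log2 fold change -0.20 ± 0.12). Sqle overlapped between the groups because replicate 2 of FBN-ARO-KO+GCI was above replicate 1 of FLOX+GCI, whereas Fdft1 did not overlap. Without replicate 1 of FBN-ARO-KO+GCI the log2 fold change was -0.045 for Sqle and -0.053 for Fdft1. Lss, which closes the ring to lanosterol, stood at 14.6 and 17.2 CPM in FLOX+GCI and at 14.3 and 14.4 CPM in FBN-ARO-KO+GCI (log2 fold change -0.15 ± 0.13). Cyp51, the lanosterol demethylase, stood at 54.3 and 65.6 CPM in FLOX+GCI and at 50.0 and 63.7 CPM in FBN-ARO-KO+GCI (log2 fold change -0.078 ± 0.14). In Cyp51 the libraries of each genotype were further apart than the genotype means, and its corrected value was -0.18.

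Of the enzymes that turn lanosterol into cholesterol, Tm7sf2, a sterol reductase, stood at 9.94 and 11.2 CPM in FLOX+GCI and at 10.4 and 9.39 CPM in FBN-ARO-KO+GCI (log2 fold change -0.093 ± 0.14). Nsdhl, a dehydrogenase of the demethylation steps, stood at 28.1 and 30.3 CPM in FLOX+GCI and at 21.4 and 29.6 CPM in FBN-ARO-KO+GCI (log2 fold change -0.20 ± 0.16). The lower mean of Nsdhl came from replicate 1 of FBN-ARO-KO+GCI, since replicate 2 lay between the FLOX+GCI libraries. Hsd17b7, the reductase that follows Nsdhl, stood at 21.9 and 22.9 CPM in FLOX+GCI and at 23.4 and 26.9 CPM in FBN-ARO-KO+GCI (log2 fold change 0.16 ± 0.11). With Idi1 it was 1 of the 2 sterol synthesis genes above 0, and its corrected value was 0.0048. Ebp, the sterol isomerase, stood at 20.0 and 16.3 CPM in FLOX+GCI and at 16.6 and 17.1 CPM in FBN-ARO-KO+GCI (log2 fold change -0.11 ± 0.13), and Dhcr7, whose reaction completes cholesterol, at 43.0 and 45.6 CPM in FLOX+GCI and at 38.3 and 39.7 CPM in FBN-ARO-KO+GCI (log2 fold change -0.18 ± 0.087, unadjusted p = 0.0706). Dhcr7 was lower in both FBN-ARO-KO+GCI libraries, and the groups of Ebp overlapped.

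As a group, 2 of the 15 sterol synthesis genes (13.3%) had an unadjusted p under 0.05, beside 16.5% of all genes, and 0 of 15 did under the GC and length correction, beside 10.2%. Of the 15, 7 were lower in both FBN-ARO-KO+GCI libraries, where 25.8% of all genes were, and 1 was higher, where 25.9% were. In either direction this was 8 of 15 (53.3%) beside 51.8% of all genes. The 15 genes also differed together between libraries of a genotype. The median deviation of their log2 CPM from the mean was 0.033 and 0.16 in the FLOX+GCI libraries and -0.18 and -0.0012 in the FBN-ARO-KO+GCI libraries. Replicate 2 was above replicate 1 for 13 of 15 genes in FLOX+GCI (median difference 0.12) and for 14 of 15 in FBN-ARO-KO+GCI (0.20), beside the median of -0.18 between the genotypes. Replicate 2 of FLOX+GCI was the highest library and replicate 1 of FBN-ARO-KO+GCI the lowest. Without replicate 1 of FBN-ARO-KO+GCI the median log2 fold change of the group was -0.088.

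Insig1, the anchor that retains Scap in the endoplasmic reticulum and itself a target of SREBP2 (chr5:28397952-28405201, + strand), had the smallest p of all 41 genes. It was at 37.6 and 36.7 CPM in FLOX+GCI and at 27.8 and 28.8 CPM in FBN-ARO-KO+GCI. Both FBN-ARO-KO+GCI libraries were below both FLOX+GCI libraries, and the gap between the groups was wider than that within either (log2 fold change -0.39 ± 0.090, 95% interval -0.60 to -0.18, unadjusted p = 0.00315, edgeR adjusted p = 0.238). Part of its transcript, 32.6% of the windows, is repeated in the assembly. Its GC content of 47.8% lies below the median of all genes, and the corrected value was -0.43 (unadjusted p = 0.000790). Insig1 was lower under each of 13 alternative settings, between -0.43 and -0.37. Its adjusted p was under 0.05 in 1 of them, edgeR's likelihood ratio test (adjusted p = 0.0456), which called 2.02% of all genes and no other gene of the 41. DESeq2, another of these settings, gave Insig1 no adjusted p (DESeq2 unadjusted p = 0.00469).

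Insig2, the other anchor, whose gene is not known as a target of SREBP2 in the way of Insig1 (chr1:123200930-123229166, - strand), stood at 66.2 and 58.3 CPM in FLOX+GCI and at 70.6 and 76.0 CPM in FBN-ARO-KO+GCI. It lay in the opposite direction to Insig1, higher in both FBN-ARO-KO+GCI libraries (log2 fold change 0.24 ± 0.093, unadjusted p = 0.0373, edgeR adjusted p = 0.278). The GC and length correction left 0.16 (unadjusted p = 0.0697), and without replicate 2 of FLOX+GCI the value was 0.14 (unadjusted p = 0.244). Srebf2, the gene of SREBP2 (chr15:81977696-82035806, + strand), stood at 225 and 233 CPM in FLOX+GCI and at 189 and 206 CPM in FBN-ARO-KO+GCI. It did not overlap between groups (log2 fold change -0.21 ± 0.076, unadjusted p = 0.0248, edgeR adjusted p = 0.255), and with its GC content of 57.5% the corrected value was -0.092. Srebf1, the gene of SREBP1, stood at 67.5 and 62.4 CPM in FLOX+GCI and at 65.5 and 49.7 CPM in FBN-ARO-KO+GCI (log2 fold change -0.17 ± 0.13). Replicate 2 of FBN-ARO-KO+GCI was the low library of Srebf1, and the other 3 were close together. Scap stood at 116 and 113 CPM in FLOX+GCI and at 109 and 96.8 CPM in FBN-ARO-KO+GCI (log2 fold change -0.16 ± 0.083), without overlap, and its corrected value was 0.0079. Among the 5 control genes, the unadjusted p was under 0.05 for 3, beside 16.5% of all genes, and under the GC and length correction for 1, beside 10.2%. The groups did not overlap for 4 of the 5, beside 51.8% of all genes, with 3 lower (25.8% of all genes) and 1 higher (25.9%). Without replicate 2 of FBN-ARO-KO+GCI their median was -0.076.

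**Figure D3:**
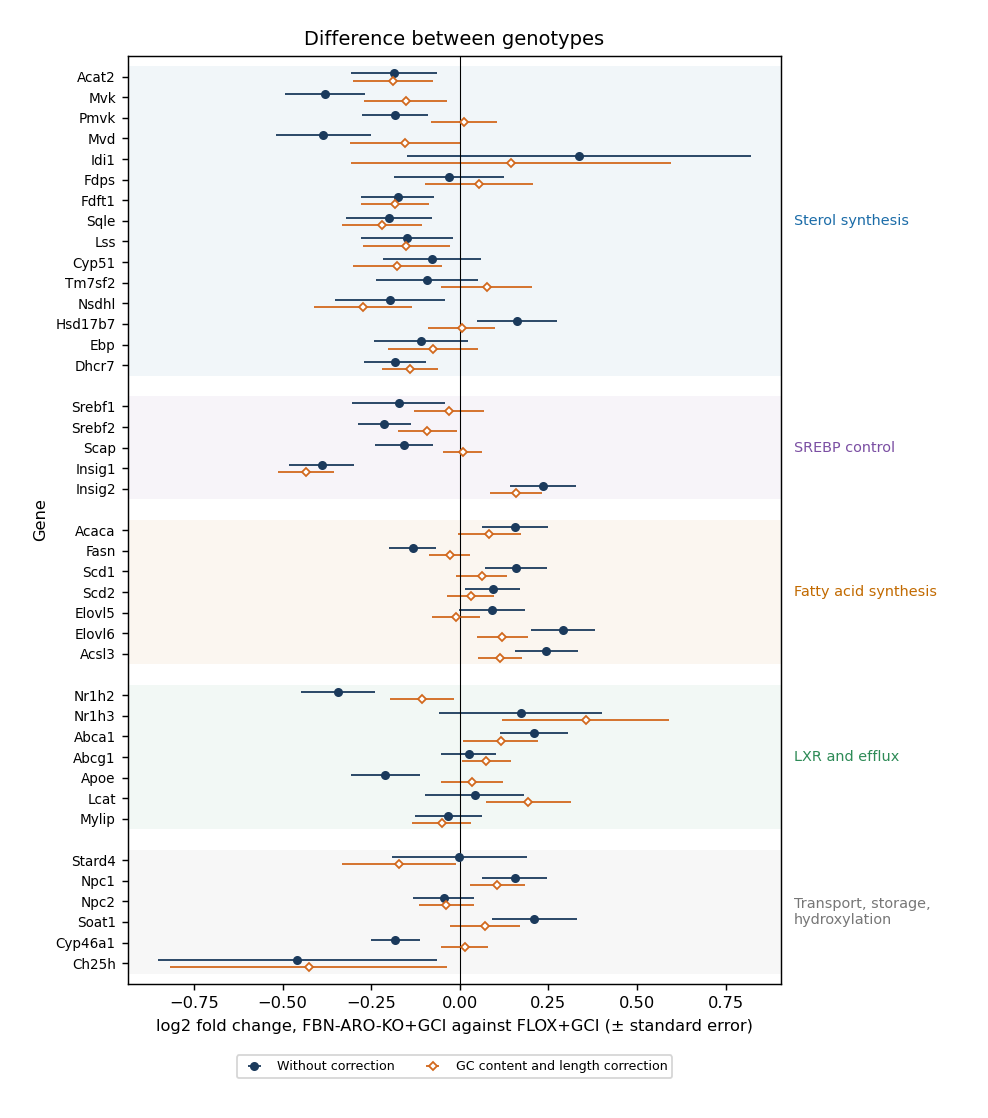
log2 fold change of FBN-ARO-KO+GCI against FLOX+GCI (horizontal axis) for each of the 40 tested genes, as edgeR estimates with bars of 1 standard error, without correction (filled circles) and with the GC content and length correction (open diamonds). Insig1 stays at -0.39 and -0.43, while Mvk moves from -0.38 to -0.15, Elovl6 from 0.29 to 0.12 and Nr1h2 from -0.34 to -0.11.

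Fatty acid synthesis differed in sign from sterol synthesis in the uncorrected values. Elovl6, which extends palmitate to stearate (chr3:129235304-129341413, + strand), stood at 72.7 and 79.9 CPM in FLOX+GCI and at 88.1 and 98.5 CPM in FBN-ARO-KO+GCI. Both FBN-ARO-KO+GCI libraries were above both FLOX+GCI libraries (log2 fold change 0.29 ± 0.090, 95% interval 0.078 to 0.50, unadjusted p = 0.0141, edgeR adjusted p = 0.247). Acsl3, which activates long fatty acids for lipid droplets and phospholipid (chr1:78654400-78703562, + strand), stood at 227 and 204 CPM in FLOX+GCI and at 240.4 and 269.9 CPM in FBN-ARO-KO+GCI. It was higher likewise (log2 fold change 0.24 ± 0.089, unadjusted p = 0.0276, edgeR adjusted p = 0.259). Both have transcripts of low GC content, 44.0% and 43.7%, and the corrected values were 0.12 (unadjusted p = 0.140) and 0.11 (unadjusted p = 0.112). Without replicate 2 of FBN-ARO-KO+GCI the value of Acsl3 was 0.16.

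Acaca, the carboxylase that makes malonyl-CoA, stood at 28.5 and 27.7 CPM in FLOX+GCI and at 31.7 and 30.9 CPM in FBN-ARO-KO+GCI (log2 fold change 0.16 ± 0.092). Fasn, the synthase that builds palmitate from it, stood at 351 and 345 CPM in FLOX+GCI and at 317 and 317 CPM in FBN-ARO-KO+GCI (log2 fold change -0.13 ± 0.066). Neither overlapped between the groups, and they lay on opposite sides of 0. Fasn, with a GC content of 57.4%, was the only gene of this group below 0, and its corrected value was -0.028. Of the transcript windows of Acaca, 52.3% are repeated in the assembly. Scd1, a desaturase that makes monounsaturated fatty acids, stood at 154 and 167 CPM in FLOX+GCI and at 168 and 190.5 CPM in FBN-ARO-KO+GCI (log2 fold change 0.16 ± 0.088), and its neighbour Scd2, the main desaturase of brain, at 1589.7 and 1597 CPM in FLOX+GCI and at 1597 and 1801 CPM in FBN-ARO-KO+GCI (log2 fold change 0.092 ± 0.077). The higher mean of Scd2 came from replicate 2 of FBN-ARO-KO+GCI, the other 3 libraries lying between 1589.7 and 1597 CPM. Elovl5, which extends polyunsaturated fatty acids, stood at 90.8 and 82.4 CPM in FLOX+GCI and at 86.3 and 98.1 CPM in FBN-ARO-KO+GCI (log2 fold change 0.091 ± 0.093) and overlapped. The corrected values were 0.083 for Acaca, 0.062 for Scd1, 0.030 for Scd2 and -0.012 for Elovl5. In all, 2 of the 7 genes had an unadjusted p under 0.05, beside 16.5% of all genes, and 0 of 7 under the GC and length correction, beside 10.2%. The groups did not overlap for 5 of the 7, beside 51.8% of all genes, and 4 of these were higher, beside 25.9%. Without replicate 2 of FBN-ARO-KO+GCI the median of the group was 0.064.

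The LXR receptors are encoded by Nr1h2 and Nr1h3. Nr1h2, the widely expressed LXRβ (chr7:51804986-51809321, - strand), stood at 37.3 and 41.6 CPM in FLOX+GCI and at 32.8 and 29.3 CPM in FBN-ARO-KO+GCI. It was lower in both FBN-ARO-KO+GCI libraries (log2 fold change -0.34 ± 0.10, 95% interval -0.59 to -0.098, unadjusted p = 0.0127, edgeR adjusted p = 0.245), and had the highest GC content of the 40 genes, 60.6%, with a corrected value of -0.11 (unadjusted p = 0.276). Nr1h3, the LXRα gene, was low, with 78 and 64 reads in FLOX+GCI and 98 and 102 reads in FBN-ARO-KO+GCI (log2 fold change 0.17 ± 0.23), and overlapped, with a corrected value of 0.35.

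The exporter Abca1, which loads cholesterol onto apolipoproteins, stood at 42.1 and 38.7 CPM in FLOX+GCI and at 49.0 and 44.3 CPM in FBN-ARO-KO+GCI (log2 fold change 0.21 ± 0.096, unadjusted p = 0.0641). It was the only LXR and efflux gene higher in both FBN-ARO-KO+GCI libraries, and its corrected value was 0.12 (unadjusted p = 0.315). Abcg1, which passes cholesterol on to formed particles, stood at 96.5 and 88.2 CPM in FLOX+GCI and at 93.0 and 94.9 CPM in FBN-ARO-KO+GCI (log2 fold change 0.025 ± 0.078), with overlap. Apoe, the main apolipoprotein of brain (chr7:20281458-20284515, - strand), stood at 1506 and 1254 CPM in FLOX+GCI and at 1230.3 and 1155 CPM in FBN-ARO-KO+GCI (log2 fold change -0.21 ± 0.096, unadjusted p = 0.0642). Replicate 1 of FLOX+GCI was the high library of Apoe, the other 3 lying between 1155 and 1254 CPM, and the corrected value was 0.034. Lcat, which esterifies cholesterol on lipoproteins, stood at 29.3 and 37.1 CPM in FLOX+GCI and at 37.0 and 31.3 CPM in FBN-ARO-KO+GCI (log2 fold change 0.042 ± 0.14). Mylip, an LXR-induced ubiquitin ligase, stood at 27.02 and 27.02 CPM in FLOX+GCI and at 26.3 and 26.6 CPM in FBN-ARO-KO+GCI (log2 fold change -0.032 ± 0.094). Mylip did not overlap, with its 4 libraries between 26.3 and 27.02 CPM, and Lcat overlapped, with a corrected value of 0.19. Abca1, Abcg1, Apoe and Mylip, as targets of LXR, lay on both sides of 0, at 0.21, 0.025, -0.21 and -0.032 on the log2 scale.

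Cyp46a1, the neuronal hydroxylase that makes cholesterol able to leave the brain (chr12:109572587-109600441, + strand), stood at 164 and 157 CPM in FLOX+GCI and at 141 and 141 CPM in FBN-ARO-KO+GCI. It was lower in both FBN-ARO-KO+GCI libraries (log2 fold change -0.18 ± 0.069, 95% interval -0.35 to -0.020, unadjusted p = 0.0327, edgeR adjusted p = 0.271). Its transcript has a GC content of 58.5%, and its corrected value was 0.013 (unadjusted p = 0.847). Ch25h, a hydroxylase of macrophages and microglia whose product activates LXR, had 58 and 54 reads in FLOX+GCI and 75 and 29 reads in FBN-ARO-KO+GCI (log2 fold change -0.46 ± 0.39, 95% interval -1.38 to 0.46). Replicate 2 of FBN-ARO-KO+GCI alone set this value, and without it the log2 fold change was 0.0075.

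Npc1 and Npc2, which together release cholesterol from lysosomes, differed little. Npc1 stood at 78.0 and 67.9 CPM in FLOX+GCI and at 79.4 and 83.0 CPM in FBN-ARO-KO+GCI (log2 fold change 0.15 ± 0.091), and Npc2 at 65.6 and 61.5 CPM in FLOX+GCI and at 58.6 and 64.6 CPM in FBN-ARO-KO+GCI (log2 fold change -0.046 ± 0.087). Npc1 did not overlap between groups, though its FLOX+GCI replicate 1 and FBN-ARO-KO+GCI replicate 1 were close. Soat1, which makes cholesteryl esters for storage, stood at 18.6 and 17.4 CPM in FLOX+GCI and at 19.3 and 22.3 CPM in FBN-ARO-KO+GCI (log2 fold change 0.21 ± 0.12) and was higher in both FBN-ARO-KO+GCI libraries, with a corrected value of 0.070. Stard4, a carrier of sterol between membranes, stood at 14.0 and 13.5 CPM in FLOX+GCI and at 11.1 and 16.5 CPM in FBN-ARO-KO+GCI (log2 fold change -0.0011 ± 0.19). Its FBN-ARO-KO+GCI libraries lay on either side of both FLOX+GCI libraries, and its corrected value was -0.17.

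Compared per kilobase of transcript, the genes spanned from Apoe at a mean of 928 CPM per kb and Scd2 at 302 to Idi1 at 0.431. In sterol synthesis Pmvk (30.5 CPM per kb), Sqle (25.8) and Fdft1 (19.8) stood highest and Lss (3.25) and Idi1 lowest. These levels divide by the whole transcript, although reads in windows repeated in the assembly may have been set aside. Repeats make up 82.1% of the windows of Idi1, 60.6% of Fdps, 52.3% of Acaca, 44.6% of Acat2 and 32.6% of Insig1. Pmvk, Sqle and Srebf1 have none, so the places of the genes with repeats may be too low and their order is uncertain. Among the control genes Srebf2 (42.7) was above Scap (25.7), Insig2 (25.1), Srebf1 (14.3) and Insig1 (12.4), with Scap and Insig2 not apart beyond the spread of the libraries. Of the fatty acid genes, Acsl3 (73.7), Scd1 (35.1), Fasn (34.7) and Elovl5 (32.1) followed Scd2. Cyp46a1, at 71.1, was near Acsl3, and the LXRβ gene Nr1h2 (17.6) was above the LXRα gene Nr1h3 (1.55) in every library.

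**Figure D4:**
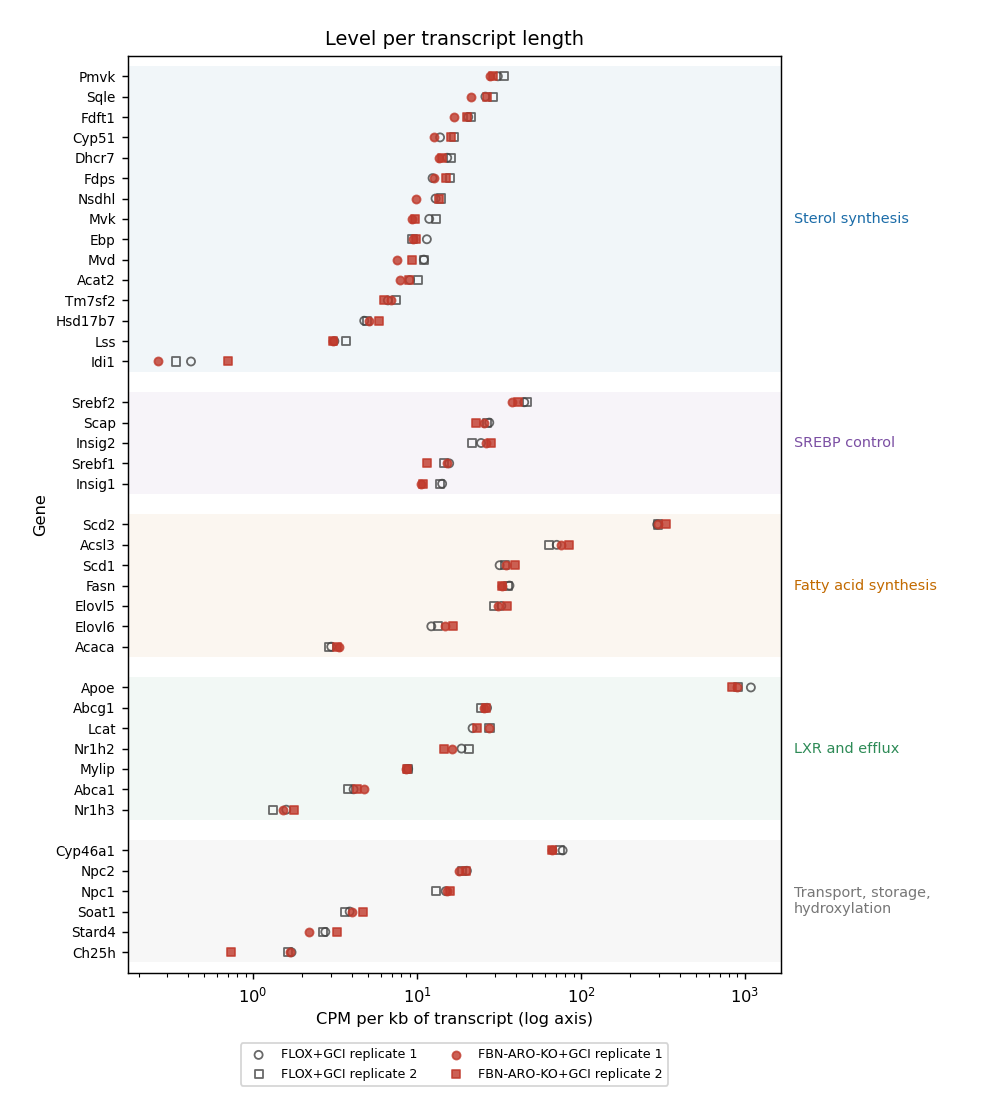
Level per transcript length of each tested gene in each library, in CPM per kb on a log axis, ordered within each role by the mean, with open symbols for FLOX+GCI, filled symbols for FBN-ARO-KO+GCI, circles for replicate 1 and squares for replicate 2. Apoe at 928 and Scd2 at 302 stand above all other genes, and the 4 libraries of a gene lie close together beside the range between genes. Genes with many repeated windows, such as Idi1 and Fdps, may be drawn too low.

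Of 49 further genes of lipid metabolism listed by role, 47 were tested, with 26 higher and 21 lower, a median of 0.022, and none below an adjusted p of 0.05 in edgeR. At an unadjusted p of 0.05, 6 of the 47 were below the threshold (12.8%) against 16.5% of all genes, and 18 did not overlap (38.3%) against 51.8%. Acsl4, which activates arachidonate, stood at 103 and 89.9 CPM in FLOX+GCI and at 116 and 148 CPM in FBN-ARO-KO+GCI (log2 fold change 0.45 ± 0.13, unadjusted p = 0.00874, edgeR adjusted p = 0.238). Acsl4 was the only gene of the list with an adjusted p under 0.05 in DESeq2 (0.0194), which called 4.92% of the genes it gave an adjusted p, and its corrected value was 0.17 (unadjusted p = 0.0356). Ggps1, which draws farnesyl diphosphate into geranylgeranylation (log2 fold change 0.27 ± 0.093, unadjusted p = 0.0231), and the oxysterol-binding family member Osbpl1a (log2 fold change 0.15 ± 0.075, unadjusted p = 0.0804) followed among the higher genes, with corrected values of 0.10 (unadjusted p = 0.319) and 0.064. Lrp1, a receptor for Apoe particles (log2 fold change -0.25 ± 0.075, unadjusted p = 0.0128), and Dgat1, which completes triglyceride (log2 fold change -0.39 ± 0.12, unadjusted p = 0.0156), were among the lower genes of smallest p, with corrected values of -0.099 (unadjusted p = 0.136) and -0.24 (unadjusted p = 0.0695).

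Marker genes of the cells that carry this metabolism were read in the same libraries. The summed level of 10 oligodendrocyte markers was 4092 and 4603 CPM in FLOX+GCI and 4676 and 4849.8 CPM in FBN-ARO-KO+GCI, with 8 of 10 higher (median 0.16) and Ermn at 0.48 but Opalin at -0.77. The sum of 10 astrocyte markers was 5135 and 5386 CPM against 5342 and 6090.4 CPM (6 of 10 higher, median 0.097), and that of 10 neuron markers 13023 and 12857 CPM against 13206 and 14006 CPM (6 of 10 higher). The sums of the oligodendrocyte and of the neuron markers did not overlap between the groups. Microglia and macrophage markers summed to 569 and 550.1 CPM against 539 and 587 CPM, and choroid plexus markers to 228 and 203 CPM against 198 and 247 CPM, both with overlap. All 5 of these sums were highest in replicate 2 of FBN-ARO-KO+GCI, and each sum is weighted towards its most abundant markers. Endothelial and mural markers summed to 354 and 261 CPM against 293 and 218 CPM, with 10 of 10 lower (median -0.34), though the sums overlapped. No marker of these lists other than the hemoglobin genes was at 0 in any library, and the part of the cell mixture in the values of the lipid genes was not tested.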

How the data were processed

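Total RNA of 4 hippocampal samples was sequenced as 50-nt single-end reads. Per the labels and the study's methods, the authors mapped reads to mm9 with TopHat2 2.0.8b and deposited HTSeq read counts per gene, raw and not normalized, 1 table per sample; annotation release and strand setting are not given in the sources used here. Records that name no gene stayed out of library sizes; those set aside as not uniquely aligned were 35.1% to 36.5% of each table. Groups came from the sample labels. The libraries of a group differed beyond sampling noise (chi-square per gene 10.9 and 12.8), so all 4 counted.

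Counts were tested in edgeR 4.0.16 (R 4.3.3) with TMM scaling, filterByExpr with a minimum count of 10, the quasi-likelihood test and Benjamini-Hochberg adjustment over 14527 genes, without a replicate block, since the labels share only a number. The SE was taken from the fold change and its F statistic. Positions, lengths and GC content came from GENCODE M1 on NCBIM37, in which 20281 of 22609 symbols had a transcript, and genes without one were not corrected. The correction fitted natural splines of 5 degrees of freedom to each library over GC content and length. Repeats were counted over 50-base windows of each longest transcript. Alternatives were DESeq2 1.42.0, other scalings, filters and tests, the block, the correction and leaving out each library. The fit was tested on simulated data. Groups were called not overlapping where both libraries of a group lay above both of the other.

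The members, role lists, further pathway genes and marker lists were chosen with earlier results of these data known. Every member is named, and of the further pathway genes the 3 with the smallest unadjusted p in each direction, of which 1 is not reported here; the markers Ermn and Opalin were named after their values were seen. The tables hold no columns of the authors' own comparisons.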

Additional observations from a re-analysis of the deposited data

How the results depend on the processing

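Against 2 genes called of 14527, DESeq2 called 285, edgeR's likelihood ratio test 294, and a filter that kept every gene with at least 1 count 5. Leaving out 1 library gave 0 to 193 calls, 193 without replicate 1 and 127 without replicate 2 of FLOX+GCI and 0 without either FBN-ARO-KO+GCI library, where 2772 and 831 genes had an unadjusted p under 0.05; in these fits the lone library was assumed to vary like the other group. With the replicate number as a block, edgeR called 184 genes and none of the 41; the numbers pair no animals, and deviations of same-numbered libraries correlated at 0.13. The block with the GC and length correction called 68.

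Against 9 of the 40 genes here with an unadjusted p under 0.05, there was 1 under the GC and length correction (Insig1). With the block added there were 5, beside 11.9% of all genes, of which only Insig1 was among the 9 and the others were the sterol synthesis genes Sqle, Nsdhl, Cyp51 and Fdft1. When 1 library was left out there were 4 (without replicate 2 of FLOX+GCI) to 10, with 3 and 6 of the 9 among them. The share of all genes under that threshold also differed between these fits, so the range is no measure of these genes alone. The median of the SREBP control genes (-0.17) was -0.030 under the correction, -0.036 with the block added, and -0.25 to -0.076 when 1 library was left out, -0.076 without replicate 2 of FBN-ARO-KO+GCI. That of the fatty acid genes (0.16) was 0.062 under the correction with and without the block and 0.064 to 0.18 when 1 library was left out, 0.064 without replicate 2 of FBN-ARO-KO+GCI. That of the LXR and efflux genes (0.025) was 0.074 under the correction, 0.075 with the block added, -0.011 with library totals only, and -0.036 to 0.011 when 1 library was left out. That of the transport, storage and hydroxylation genes (-0.024) was -0.064 to 0.10 when 1 library was left out, 0.10 without replicate 1 of FBN-ARO-KO+GCI. That of sterol synthesis (-0.18) stayed below 0 under every alternative run and was -0.26 to -0.088 when 1 library was left out.

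Under the correction the sign turned for Pmvk (0.012), Fdps (0.054), Tm7sf2 (0.076), Scap (0.0079), Elovl5 (-0.012), Apoe (0.034) and Cyp46a1 (0.013), and with the block added for Pmvk (0.011), Fdps (0.058), Tm7sf2 (0.078), Scap (0.0077), Elovl5 (-0.012), Apoe (0.039) and Cyp46a1 (0.012). Abcg1 was at -0.011 with library totals only, and Stard4 at 0.0011 with every gene of at least 1 count. Leaving out 1 library turned the sign of Ebp (-0.25 to 0.045), Lcat (-0.12 to 0.22), Stard4 (-0.31 to 0.26), Npc2 (-0.12 to 0.020), Fdps (-0.19 to 0.15), Cyp51 (-0.26 to 0.085), Abcg1 (-0.041 to 0.093), Nsdhl (-0.44 to 0.014), Idi1 (-0.52 to 0.89), Srebf1 (-0.39 to 0.013), Elovl5 (-0.0027 to 0.18) and Ch25h (-1.19 to 0.0075). None of these genes passed the adjusted threshold in any fit, and the causes were not tested. Of the single-gene values with 1 library left out, 143 kept their direction and 17 reversed, and of those under the other settings 342 kept it, 16 reversed, and Insig1 passed the adjusted threshold in the likelihood ratio test. Depth limits Idi1 and Ch25h most, with 24 to 59 and 29 to 75 reads per library.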
